A study of Mus musculus with 16 samples.

Results

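Adrb1, Adra1a and Adra1b, Gnas, Adcy5 and Adcy6, Grk5, Pde4d and Pde4b are 9 mouse genes that carry the adrenergic signal of the heart from the receptor at the cell surface to cyclic AMP (cAMP) and its removal. They were chosen by name, through the RefSeq accession that the array gives for each probe, and are 9 of the 21154 genes with a named probe. The 9 genes have 19 probes, and the probe with the highest mean signal stood for each gene. Of the 14074 genes whose probe passed the filter on dim signal, all 9 were among those tested.

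RNA came from ventricles of female mice in 4 groups of 4 animals. These were lactating Npr1-/- mice (KO), nulliparous Npr1-/- mice, lactating Npr1+/+ mice (wild type, WT) and nulliparous Npr1+/+ mice. Lactating mice were at 2 weeks of lactation, and nulliparous mice had never given birth. The product of Npr1 is the receptor guanylyl cyclase for the natriuretic peptides that the heart releases. The KO label names the loss of Npr1 only, and age, strain and the deleted stretch are not given in the sources used here. Each animal has 1 single-colour Agilent array, and a level is the log2 processed signal minus the array's own 75th percentile, so that 0 is the signal at that percentile.

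Noradrenaline from sympathetic nerves and adrenaline from the blood bind beta adrenergic receptors on the cardiomyocyte, of which the product of Adrb1 is the main one in the ventricle. The receptor activates the stimulatory G protein (Gnas), which drives adenylyl cyclases (Adcy5 and Adcy6 in the cardiomyocyte) to make cAMP, and protein kinase A (PKA) then phosphorylates calcium channels, the ryanodine receptor and phospholamban, so that the beat becomes faster and stronger. Alpha-1 receptors (Adra1a, Adra1b) act through the Gq protein, Grk5 phosphorylates receptors that have bound agonist and so dampens them, and type 4 phosphodiesterases (Pde4d, Pde4b) break cAMP down near its source.

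PKA also phosphorylates CREB, a transcription factor that binds the palindrome TGACGTCA or its shorter form TGACG, so promoter windows from RefSeq (GRCm38.p6) were searched for both forms on both strands. The 5-letter form can lie within the 8-letter one. A window covers 250 bases before and 50 bases after a transcript start. Windows were given for 7 of the 9 genes, 14 windows in all. The 8-letter form was in 0 of the 14, against 1.79% of all 32851 windows, and the 5-letter form was in 5 of them, from 3 genes, against 20.8% of all windows. One window of each of these 3 genes is shown, cut to the 250 bases before the start, because these letters are what the search found. The capitals mark TGACG, or CGTCA where it lies on the other strand. The Adrb1 window is chr19:56721867-56722116, the Gnas window is chr2:174327499-174327748 and the Pde4b window is chr4:102421305-102421554, all on the plus strand.
Adrb1: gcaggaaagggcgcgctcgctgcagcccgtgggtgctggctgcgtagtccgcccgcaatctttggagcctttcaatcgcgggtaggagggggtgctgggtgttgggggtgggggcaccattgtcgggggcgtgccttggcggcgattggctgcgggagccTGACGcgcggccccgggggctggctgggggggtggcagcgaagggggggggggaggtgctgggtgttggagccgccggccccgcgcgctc
Gnas: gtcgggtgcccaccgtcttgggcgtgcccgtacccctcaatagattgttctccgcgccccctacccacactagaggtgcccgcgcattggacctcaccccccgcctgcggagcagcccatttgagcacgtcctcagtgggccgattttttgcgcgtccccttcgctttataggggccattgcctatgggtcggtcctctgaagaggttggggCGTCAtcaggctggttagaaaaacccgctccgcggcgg
Pde4b: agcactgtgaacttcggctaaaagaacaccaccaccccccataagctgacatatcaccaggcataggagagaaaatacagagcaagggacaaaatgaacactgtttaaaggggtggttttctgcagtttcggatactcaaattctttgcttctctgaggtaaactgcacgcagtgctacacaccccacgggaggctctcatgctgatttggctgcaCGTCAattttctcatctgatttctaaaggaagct
The capitals begin 90 bases before the start in Adrb1, 38 bases before it in Gnas and 34 bases before it in Pde4b. A second Gnas window overlaps the one shown and holds the same letters. Another, from a start further downstream, holds CGTCA at 216 bases before that start. The remaining Gnas window, the one furthest upstream, and the other 3 windows of Pde4b hold none.

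The arrays had 49.58% to 59.41% of spots well above background and 0 saturated spots, and the facts that touch every result below are few. The 75th percentile of signal was 295.1 to 347.4 on lactating KO arrays, 164.7 to 283.6 on nulliparous KO arrays, 278.2 to 309.0 on lactating WT arrays and 198.0 to 220.7 on nulliparous WT arrays. The highest of the nulliparous KO values was that of replicate 4. That array apart, every nulliparous value lay below every lactating value, so array brightness and lactation can hardly be told apart. All 8 cardiomyocyte markers were tested, and Npr1 itself was above background on 9 of 16 arrays and failed the filter, so its probe does not check the genotype labels. Its levels ran from -4.27 to -3.62 in lactating KO, -4.15 to -3.71 in nulliparous KO, -4.68 to -3.53 in lactating WT and -4.47 to -3.62 in nulliparous WT. Replicates 1 and 2 of every group shared one slide and replicates 3 and 4 the other, and each group held the same column of both slides, so column position and group cannot be told apart.

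The calls among the 9 members were all between lactating and nulliparous mice. In lactating against nulliparous KO ventricles Adcy6 and Adcy5 fell by 0.39 and 0.40 on the log2 scale, and no member was called higher. In lactating against nulliparous WT ventricles Adcy6 and Adrb1 fell by 0.46 and 0.61, and Grk5 and Gnas rose by 0.77 and 0.22. A gene was called at an adjusted p under 0.05 in limma. Thus 2 of 9 members passed in KO, 0 higher and 2 lower, where 44.1% of all tested genes were called, 25.5% higher and 18.6% lower. In WT 4 of 9 passed, 2 higher and 2 lower, where 50.3% of all genes were called, 31.8% higher and 18.5% lower. Counted in either direction, the shares of members called were no larger than those of all genes. The median log2 difference of the 9 members was -0.09 in KO and -0.02 in WT, beside 0.06 and 0.10 over all tested genes.

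Directions of small changes depended on the scaling. With the array median as the zero of the scale instead of the 75th percentile, the median difference of all genes was 0.24 in KO and 0.28 in WT, 79.2% of KO calls and 80.3% of WT calls were higher, where 57.8% and 63.2% were with the 75th percentile, and no member was called lower. Under that scaling Grk5 and Gnas were called higher in KO, and Grk5, Gnas and Pde4b in WT.

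**Figure D1:**
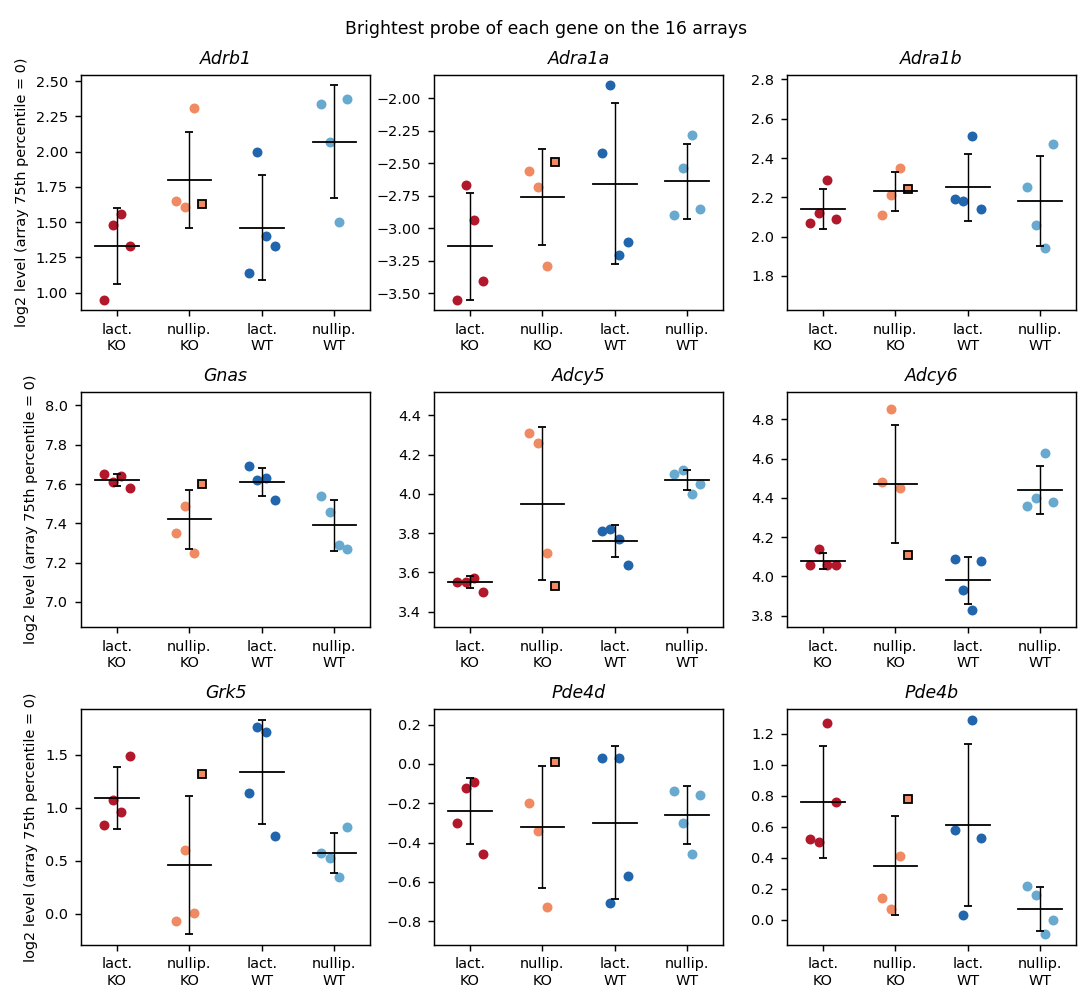
Log2 level (y axis, 0 is the array's 75th percentile) of the brightest probe of the 9 genes on the 16 arrays, with lactating KO, nulliparous KO, lactating WT and nulliparous WT from left to right. Points are single mice, lines are means and bars are SD (n = 4), and the square is nulliparous KO replicate 4. Adcy6 does not overlap between lactating WT (3.83 to 4.09) and nulliparous WT (4.36 to 4.63), while the 4 groups of Pde4d and of Adra1b lie on each other.

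Among the receptors, Adrb1 (probe A_52_P322181) was at 0.95, 1.48, 1.56 and 1.33 in lactating KO mice, against 1.65, 1.61, 2.31 and 1.63 in nulliparous KO mice. It was at 1.14, 2.00, 1.40 and 1.33 in lactating WT mice, against 2.34, 2.07, 1.50 and 2.37 in nulliparous WT mice. All 4 lactating KO mice lay below all 4 nulliparous KO mice, and in WT the groups overlapped through replicate 2 of the lactating and replicate 3 of the nulliparous mice. The KO difference was -0.47 ± 0.23 (SE, adjusted p = 0.112) and the WT difference -0.61 ± 0.23 (adjusted p = 0.0403). The WT call ended when any one of nulliparous WT replicates 1, 2 or 4 or lactating WT replicates 1, 3 or 4 was left out (adjusted p 0.0705 to 0.113), and within the slides the difference was -0.64 and -0.57. With both Adrb1 probes averaged it was -0.10 (adjusted p = 0.711), and 17 of 30 alternatives kept the call.

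The alpha-1 receptors gave no call with their brightest probes. Adra1a, read by a dim probe, was at -3.55, -2.67, -2.94 and -3.41 in lactating KO mice, against -2.56, -2.68, -3.29 and -2.49 in nulliparous KO mice. The WT values were -2.42, -1.90, -3.21 and -3.11 in lactating and -2.90, -2.54, -2.28 and -2.85 in nulliparous mice. Both pairs of groups overlapped. The differences were -0.39 ± 0.29 in KO (adjusted p = 0.288) and -0.02 ± 0.29 in WT (adjusted p = 0.957), and normexp background correction gave -0.43 in KO (adjusted p = 0.0121) and -0.26 in WT (adjusted p = 0.0933). On slide 1 the WT difference was 0.55 and on slide 2 it was -0.60.

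Adra1b (probe A_55_P2177721) was at 2.07, 2.12, 2.29 and 2.09 in lactating KO mice, against 2.11, 2.21, 2.35 and 2.24 in nulliparous KO mice. In WT it was at 2.19, 2.18, 2.51 and 2.14 in lactating mice, against 2.25, 2.06, 1.94 and 2.47 in nulliparous mice. The 4 group means lay within 0.11 of each other, and the differences were -0.09 ± 0.12 in KO (adjusted p = 0.57) and 0.07 ± 0.12 in WT (adjusted p = 0.629).

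Gnas, the alpha subunit of the stimulatory G protein, spanned 7.25 to 7.69 over the 16 arrays on its brightest probe (A_55_P2081313). It was at 7.65, 7.61, 7.64 and 7.58 in lactating KO mice, against 7.35, 7.49, 7.25 and 7.60 in nulliparous KO mice. It was at 7.69, 7.62, 7.63 and 7.52 in lactating WT mice, against 7.54, 7.46, 7.29 and 7.27 in nulliparous WT mice. Both pairs overlapped, by nulliparous KO replicate 4 and by lactating WT replicate 4. The differences were 0.20 ± 0.09 in KO (adjusted p = 0.0753) and 0.22 ± 0.09 in WT (adjusted p = 0.0447). The WT call ended under 18 of 30 alternatives and turned when the probes were averaged. Leaving out any single array other than nulliparous WT replicate 1, lactating WT replicate 4 or nulliparous KO replicates 3 and 4 ended it (adjusted p 0.0516 to 0.123). Within the slides the WT difference was 0.15 and 0.30.

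Both cyclases had lower means in lactating mice of either genotype, and 3 of these 4 differences were called. Adcy6 was at 4.06, 4.14, 4.06 and 4.06 in lactating KO mice, against 4.48, 4.85, 4.45 and 4.11 in nulliparous KO mice. It was at 4.09, 3.93, 3.83 and 4.08 in lactating WT mice, against 4.36, 4.40, 4.63 and 4.38 in nulliparous WT mice. The WT groups did not overlap, and in KO the single nulliparous value inside the lactating range was replicate 4. The differences were -0.39 ± 0.12 in KO (1.31-fold lower, adjusted p = 0.0202) and -0.46 ± 0.12 in WT (1.37-fold lower, adjusted p = 0.00742). The WT call was kept without any one array, with an adjusted p of 0.00142 to 0.0259. It ended with median centring (adjusted p = 0.0676) and on each slide alone (adjusted p = 0.082 and 0.118). The KO call ended without nulliparous KO replicate 2 (adjusted p = 0.0667) and under normexp background correction (adjusted p = 0.0896). It also ended with median centring (adjusted p = 0.163), with only the groups compared (adjusted p = 0.0666) and on slide 2 alone (adjusted p = 0.536). Slide 1 and slide 2 gave -0.57 and -0.22 in KO and -0.37 and -0.55 in WT.

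Adcy5 was at 3.55, 3.55, 3.57 and 3.50 in lactating KO mice, against 4.31, 4.26, 3.70 and 3.53 in nulliparous KO mice. It was at 3.81, 3.82, 3.77 and 3.64 in lactating WT mice, against 4.10, 4.12, 4.00 and 4.05 in nulliparous WT mice. The lactating KO values lay within 0.07 of each other, the nulliparous KO values fell into a high pair on slide 1 and a low pair on slide 2, and the WT groups did not overlap. The fit gave -0.40 ± 0.14 in KO (adjusted p = 0.0306) and -0.31 ± 0.14 in WT (adjusted p = 0.0809). In KO the difference was -0.73 on slide 1 and -0.08 on slide 2, and the call ended without nulliparous KO replicate 1 or 2 or any lactating KO array (adjusted p 0.0525 to 0.107). With the Adcy5 probes averaged the KO difference was -0.17 (adjusted p = 0.308). In WT it was -0.30 on slide 1 and -0.32 on slide 2, and 7 of 30 alternatives called it. The SD was 0.39 among nulliparous KO mice and 0.03 to 0.08 in the other 3 groups, while the fit used a spread shared by all groups. With only the groups compared the calls swapped. The KO call ended (SE 0.18, adjusted p = 0.109) and the WT difference was called (SE 0.07, adjusted p = 0.00776).

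Grk5, the receptor kinase, was at 0.84, 1.07, 0.96 and 1.49 in lactating KO mice, against -0.07, 0.60, 0.01 and 1.32 in nulliparous KO mice. It was at 1.14, 1.76, 1.71 and 0.73 in lactating WT mice, against 0.57, 0.53, 0.35 and 0.82 in nulliparous WT mice. In KO 3 of 4 nulliparous mice lay below every lactating mouse and replicate 4 lay within the lactating range, and in WT 3 of 4 lactating mice lay above every nulliparous mouse and replicate 4 lay within the nulliparous range. The difference was 0.62 ± 0.29 in KO (adjusted p = 0.0915) and 0.77 ± 0.29 in WT (1.70-fold higher, adjusted p = 0.0383). Without nulliparous KO replicate 4 the KO difference was 0.91 (adjusted p = 0.00726). The WT call ended without nulliparous WT replicate 1, 2 or 3 or lactating WT replicate 2 or 3 (adjusted p 0.0667 to 0.11), and the 2 slides gave 0.90 and 0.64.

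The phosphodiesterases gave no call with their brightest probes. Pde4d (probe A_65_P12530) was at -0.30, -0.12, -0.09 and -0.46 in lactating KO mice, against -0.20, -0.34, -0.73 and 0.01 in nulliparous KO mice. In WT it was at 0.03, -0.71, 0.03 and -0.57 in lactating mice, against -0.14, -0.30, -0.46 and -0.16 in nulliparous mice. All groups overlapped, with differences of 0.07 ± 0.18 in KO (adjusted p = 0.766) and -0.04 ± 0.18 in WT (adjusted p = 0.873). Pde4b (probe A_65_P01319) was at 0.52, 0.50, 1.27 and 0.76 in lactating KO mice, against 0.14, 0.07, 0.41 and 0.78 in nulliparous KO mice. In WT it was at 0.58, 0.03, 1.29 and 0.53 in lactating mice, against 0.22, 0.16, -0.09 and 0.00 in nulliparous mice. Its differences were 0.41 ± 0.24 in KO (adjusted p = 0.168) and 0.53 ± 0.24 in WT (adjusted p = 0.074), and without lactating WT replicate 2, the one low value of that group, the WT difference was 0.73 (adjusted p = 0.019).

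Order among groups was mostly within the spread. When the 4 groups were ranked by mean for each gene, 24 of the 27 pairs of neighbours overlapped. The 3 that did not were lactating WT over lactating KO for Adcy5, nulliparous WT over lactating KO for Adcy6, and lactating KO over nulliparous WT for Grk5. This ranking was not run over all genes, so the 24 of 27 is not shown to be particular to the members. In KO the arrays of Adrb1 did not overlap between lactating and nulliparous mice, 1 of 9 members where 33.1% of all genes did not overlap. In WT those of Adcy5 and Adcy6 did not, 2 of 9 members where 47.4% of all genes did not overlap.

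One array bore on the KO comparison. Nulliparous KO replicate 4 lay outside the range of the other 3 nulliparous KO mice for 12 of the 17 member probes that passed the filter, and was nearer the lactating KO mean than the mean of those 3 for 12 of 17 probes and 6 of 9 brightest probes. It was nearer for 67.4% of all tested genes. The share of all genes for which it lay outside the range of the other 3 was not taken. Without this array 4 members were called in KO, Adcy5 and Adcy6 lower and Grk5 and Gnas higher.

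The 9 genes had 10 other probes, of which 8 passed the filter, and 4 of these 8 fell with lactation in both genotypes while 0 rose. Of all named probes, 45.1% were called in KO and 51.2% in WT, and 19.3% were called lower in each. The 4 that fell belong to Adra1b, Gnas, Pde4d and Pde4b, whose brightest probes gave either no call or, for Gnas, a call upwards in WT. The 4 calls in each genotype were kept under every alternative run except slide 2 on its own, where 0 were called, and where 0 of all genes were called in KO and 86 in WT.

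**Figure D2:**
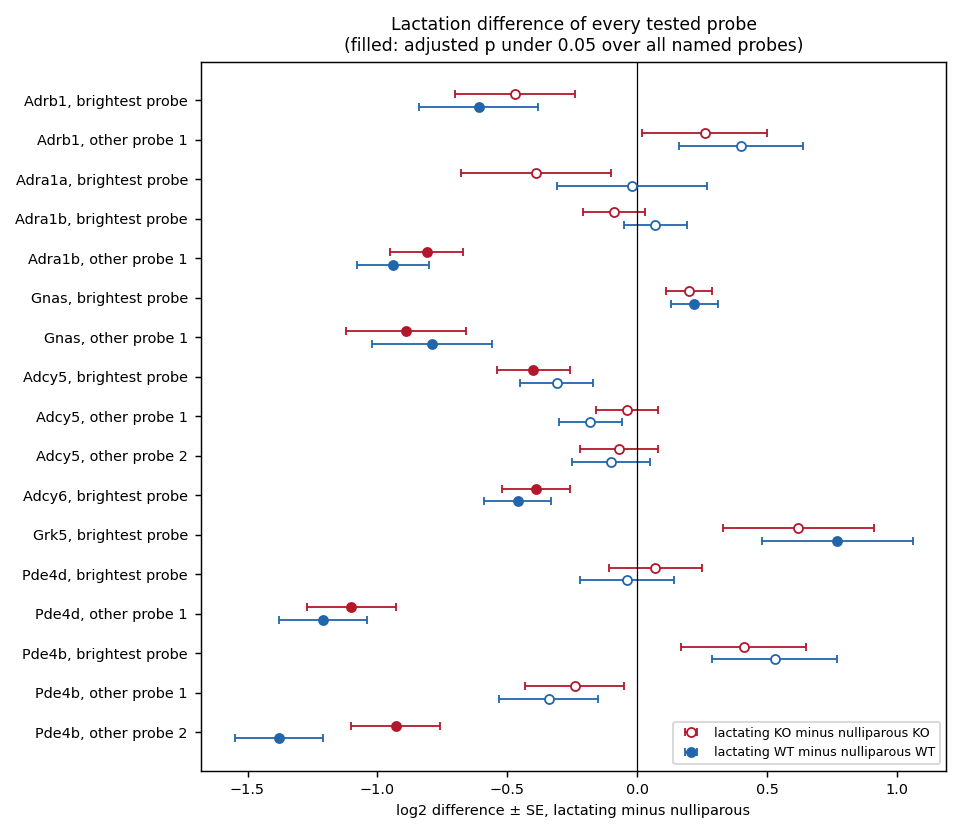
Log2 difference with its SE (x axis) of lactating minus nulliparous for each of the 17 member probes that passed the filter, KO in red above WT in blue. Filled points have an adjusted p under 0.05 over all named probes. A dimmer probe of Adra1b, Gnas, Pde4d and Pde4b lies between -1.38 and -0.79 in both genotypes, where the brightest probe of each lies between -0.09 and 0.53.

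The dimmer probe of Adra1b (A_55_P2100290) was at -0.45, -0.64, -0.38 and -0.61 in lactating KO mice, against 0.35, 0.46, 0.61 and -0.25 in nulliparous KO mice. It was at -0.55, -0.65, -0.43 and -0.66 in lactating WT mice, against 0.34, 0.37, 0.32 and 0.44 in nulliparous WT mice. Neither pair of groups overlapped, and nulliparous KO replicate 4 lay between the others and the lactating mice. The probe fell by 0.81 in KO (SE 0.14, adjusted p = 0.00109) and by 0.94 in WT (SE 0.14, adjusted p = 0.000222). Slide 1 and slide 2 gave -0.95 and -0.68 in KO and -0.95 and -0.92 in WT.

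For Pde4d, whose product is a main cAMP phosphodiesterase of the mouse heart, the dimmer probe (A_55_P2010396) was at -0.92, -0.95, -1.07 and -1.03 in lactating KO mice, against 0.51, 0.17, 0.21 and -0.46 in nulliparous KO mice. It was at -0.66, -1.17, -0.76 and -1.10 in lactating WT mice, against 0.40, 0.25, 0.05 and 0.44 in nulliparous WT mice. The groups did not overlap in either genotype. It fell by 1.10 in KO (2.14-fold, SE 0.17, adjusted p = 0.000698) and by 1.21 in WT (2.32-fold, SE 0.17, adjusted p = 0.000158), with -1.27 and -0.93 on the 2 slides in KO and -1.25 and -1.18 in WT. A further Pde4d probe was above background on 1 of 16 arrays and was not tested.

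Pde4b had 3 probes, of which only the dimmest gave a call with lactation. The dimmest (A_52_P149801) was at -2.66, -2.99, -2.36 and -2.54 in lactating KO mice, against -1.61, -1.77, -1.40 and -2.05 in nulliparous KO mice. It was at -2.89, -2.95, -2.87 and -2.76 in lactating WT mice, against -1.17, -1.32, -1.86 and -1.60 in nulliparous WT mice. The groups did not overlap in either genotype, and the probe fell by 0.93 in KO (SE 0.17, adjusted p = 0.00119) and by 1.38 in WT (SE 0.17, adjusted p = 9.12e-05), where normexp gave -0.82. The middle probe (A_52_P423247) had differences of -0.24 ± 0.19 in KO (adjusted p = 0.317) and -0.34 ± 0.19 in WT (adjusted p = 0.142), and the brightest those of 0.41 and 0.53 given above.

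The dimmer tested probe of Gnas (A_55_P2081323), annotated to another RefSeq transcript of the locus than the brightest, was at -3.77, -3.97, -4.23 and -3.19 in lactating KO mice, against -2.66, -2.73, -2.73 and -3.48 in nulliparous KO mice. It was at -3.68, -3.56, -3.46 and -2.84 in lactating WT mice, against -2.61, -2.52, -2.50 and -2.73 in nulliparous WT mice. The KO groups overlapped through replicate 4 of each, and the WT groups did not overlap. It fell by 0.89 in KO (SE 0.23, adjusted p = 0.00751) and by 0.79 in WT (SE 0.23, adjusted p = 0.011). Within the slides it was -1.17 and -0.60 in KO and -1.05 and -0.53 in WT. With normexp the differences were -0.60 in KO and -0.55 in WT. A further Gnas probe was above background on 0 of 16 arrays. Gnas is an imprinted locus with several promoters and antisense transcripts, so its probes can read different RNAs.

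**Figure D3:**
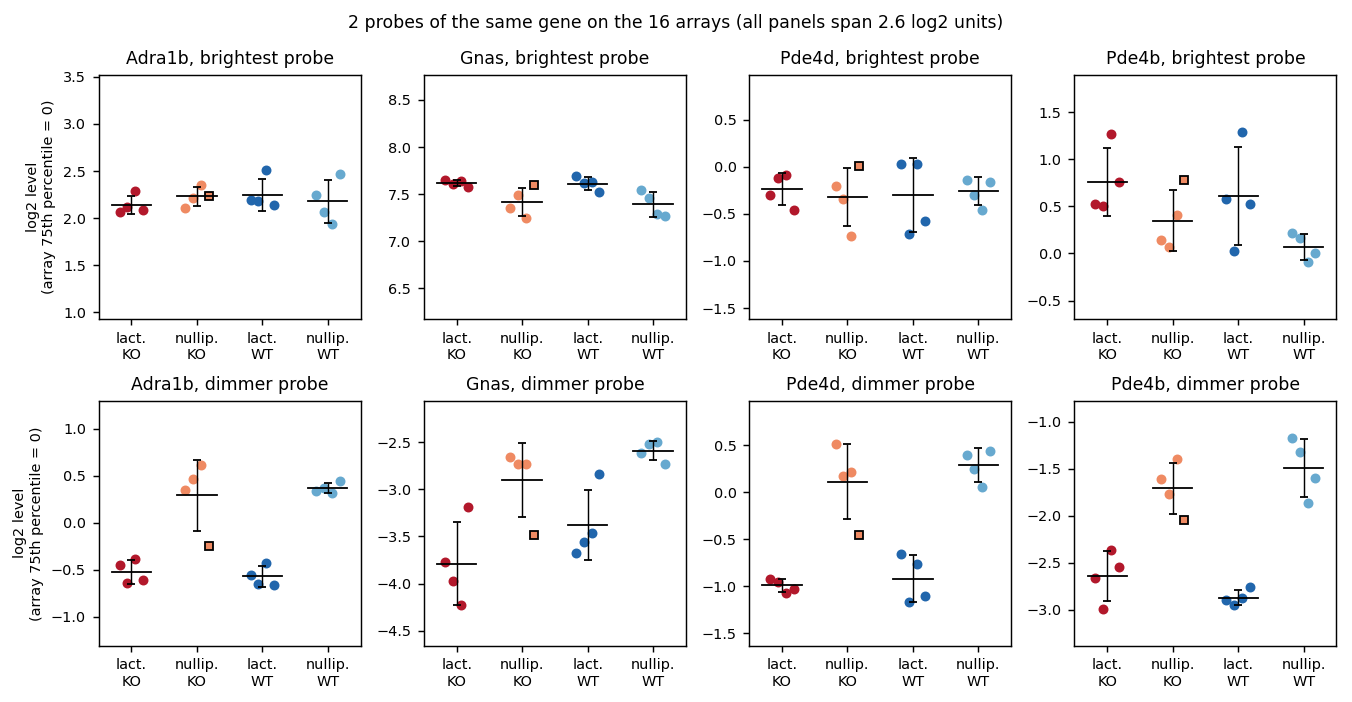
Log2 level (y axis, 0 is the array's 75th percentile) of the brightest probe (top row) and of the dimmer probe that fell (bottom row) for Adra1b, Gnas, Pde4d and Pde4b on the 16 arrays, all panels spanning 2.6 log2 units. Points are mice in lactating KO, nulliparous KO, lactating WT and nulliparous WT, lines are means, bars are SD (n = 4) and the square is nulliparous KO replicate 4. In the bottom row the groups of Adra1b, Pde4d and Pde4b do not overlap with lactation in either genotype.

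The remaining 4 tested probes gave no call. The second Adrb1 probe (A_51_P203827) was dim, at -3.30 to -2.74 in lactating KO, -3.63 to -2.50 in nulliparous KO, -3.13 to -2.72 in lactating WT and -3.96 to -2.83 in nulliparous WT. Its differences of 0.26 ± 0.24 in KO (adjusted p = 0.404) and 0.40 ± 0.24 in WT (adjusted p = 0.185) had the opposite sign to those of the brightest probe, and normexp turned them to -0.23 and -0.14. Both further Adcy5 probes had differences between -0.18 and -0.04, with adjusted p from 0.217 to 0.81.

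A test chosen after seeing the data took, on each array, the other probe minus the brightest probe of the same gene, a difference that no array-wide scaling factor can change. Its lactation change was called for 8 of 8 member pairs in KO and 6 of 8 in WT, over 4413 pairs of probes in which 47.7% and 54.0% of pairs were called. Probes of one gene that changed by different amounts were thus common across the array. For Adra1b the change of this difference was -0.73 ± 0.15 in KO (adjusted p = 0.00231) and -1.01 ± 0.15 in WT (adjusted p = 0.000291). For Pde4d it was -1.17 ± 0.22 in KO (adjusted p = 0.00176) and -1.17 ± 0.22 in WT (adjusted p = 0.000836). For the dimmest Pde4b probe it was -1.34 ± 0.25 in KO (adjusted p = 0.00174) and -1.91 ± 0.25 in WT (adjusted p = 0.000177, -1.22 with normexp). Normexp kept 7 of 8 calls in KO and 6 of 6 in WT. Probes of Adrb1, Adra1b, Adcy5 and Pde4b, and the pair tested for Pde4d, carry 1 RefSeq accession per gene, so the annotation does not say which transcripts they tell apart. Averaging the probes of a gene ended the calls of Adrb1 in WT and Adcy5 in KO, as given above, and turned Gnas to -0.32 in KO (adjusted p = 0.031) and -0.40 in WT (adjusted p = 0.00878). It gave Adra1b -0.45 in KO and -0.43 in WT (adjusted p = 0.00562 and 0.00526), Pde4d -0.80 in KO and -0.37 in WT (adjusted p = 0.00122 and 0.0417), and Pde4b -0.25 in KO and -0.40 in WT (adjusted p = 0.245 and 0.0654). These averages took in every named probe of a gene, also the further Gnas and Pde4d probes that failed the filter. That Pde4d probe had a mean of -6.07 in lactating KO mice against -4.68 in nulliparous KO mice. It was not above background on any of these arrays, so the averaged values of Gnas and Pde4d rest partly on signal at background.

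Loss of Npr1 was not accompanied by a call in any of the 9 genes. In lactating KO against lactating WT ventricles the differences ran from -0.48 for Adra1a to 0.15 for Pde4b, 0 of 9 were called (smallest adjusted p 0.689, 0 at an unadjusted p under 0.05), and 0.199% of all genes were called. In nulliparous KO against nulliparous WT ventricles they ran from -0.27 for Adrb1 to 0.27 for Pde4b, 0 of 9 were called (smallest adjusted p 0.743, 0 at an unadjusted p under 0.05), and 0.0995% of all genes were called. Adcy5 was lower in all 4 lactating KO mice than in any lactating WT mouse, by 0.21 on average (SE 0.14, adjusted p = 0.738), and 7.77% of all genes did not overlap between these groups. None of the 8 other probes passed either, where 0.195% of named probes were called in lactating and 0.0703% in nulliparous mice, the largest difference being -0.40 ± 0.23 for the dimmer Gnas probe in lactating mice (adjusted p = 0.689). These misses do not show that the genotypes are alike: an SE of 0.23 to 0.29 for Adrb1, Pde4b, Grk5 and Adra1a leaves room for changes of the size seen with lactation.

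A difference between the genotypes in the lactation response was called for 0 of the 9 genes by the interaction test. The interaction, the KO response minus the WT response, ran from -0.36 ± 0.40 for Adra1a to 0.14 ± 0.33 for Adrb1 (smallest adjusted p 0.891, 0 of 9 called, 0 at an unadjusted p under 0.05, against 0.0924% of all genes called). Hence the call of Adcy5 in KO and those of Adrb1, Grk5 and Gnas in WT are not shown to belong to one genotype. For the dimmest Pde4b probe the interaction was 0.45 ± 0.24 (adjusted p = 0.846).

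Other genes of the pathway were taken from lists by role, 103 genes of which 102 had a probe and 92 passed the filter. In KO 26 rose, 23 fell and 43 gave no call, and in WT 24 rose, 21 fell and 47 gave no call, which is 53.3% and 48.9% of the 92, beside the 44.1% and 50.3% of all genes. The median difference of the 92 was -0.01 in KO and 0.04 in WT. In both genotype comparisons and in the interaction 0 of 92 were called. Genes below are those with the smallest adjusted p in each list, and the few more named in parentheses to complete a small count were chosen after their values were seen. The scaling bears on the small ones: centring on the median ended the calls of Adra2b in WT (adjusted p = 0.08) and of Adcy4 and Cacna1c in KO (adjusted p = 0.0552 and 0.305).

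Among 4 other adrenergic receptors tested of 6 listed, 2 rose and 2 fell in KO, and 1 rose and 2 fell in WT. Adra2c and Adra2b, alpha-2 receptors that inhibit noradrenaline release or cAMP formation through Gi, fell by 0.67 and 0.49 in KO (SE 0.16 and 0.12, adjusted p = 0.00405 and 0.00477) and by 0.68 and 0.44 in WT (adjusted p = 0.00282 and 0.00682). Adra1d, another Gq-coupled receptor, rose by 1.62 ± 0.27 in KO (adjusted p = 0.00081) and 1.61 ± 0.27 in WT (adjusted p = 0.000374), but only 1 of 4 nulliparous arrays of each genotype was above background, and with normexp the differences were 0.15 and 0.13 (adjusted p = 0.217 and 0.296).

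All 21 G protein subunits and RGS genes listed were tested, of which 8 rose and 4 fell in KO, and 8 rose and 5 fell in WT. Gng5, a gamma subunit, rose by 0.68 ± 0.13 in KO (adjusted p = 0.00127) and 0.89 ± 0.13 in WT (adjusted p = 0.00015), and Gng2 rose by 0.74 ± 0.12 in WT (adjusted p = 0.000277). Gna12, a G protein alpha subunit, rose by 1.49 ± 0.26 in KO (adjusted p = 0.00108) and 2.07 ± 0.26 in WT (adjusted p = 9.28e-05), though normexp gave 0.41 and 0.61 and 2 of 4 nulliparous WT arrays were above background. Rgs2, which turns off Gq, fell by 1.25 ± 0.19 in KO (adjusted p = 0.000607) and 1.03 ± 0.19 in WT (adjusted p = 0.000622). The other genes that fell were Gnai2, Gnb2 and Rgs4 in both genotypes and Gnao1 in WT (named after their values were seen).

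Among 4 other adenylyl cyclases tested of 8 listed, 1 rose and 2 fell in KO, and 0 rose and 1 fell in WT. Adcy9 fell by 0.54 ± 0.11 in KO (adjusted p = 0.00192) and 0.77 ± 0.11 in WT (adjusted p = 0.000153), the direction of Adcy6. Adcy4 fell by 0.45 ± 0.12 in KO (adjusted p = 0.00927), and Adcy7, a cyclase of blood and immune cells, rose by 0.80 ± 0.23 in KO (adjusted p = 0.0135). None of the 6 other receptor kinases and arrestins was called in either genotype, and their median difference was 0.03 in KO and 0.00 in WT.

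Of 13 further phosphodiesterases and partners tested, 0 rose and 6 fell in KO, and 1 rose and 5 fell in WT. Pde3a, the main cGMP-inhibited cAMP phosphodiesterase of cardiac and smooth muscle, fell by 1.42 ± 0.21 in KO (2.68-fold, adjusted p = 0.000553) and 1.51 ± 0.21 in WT (2.85-fold, adjusted p = 0.000127). Pde4c fell by 0.65 ± 0.10 in KO (adjusted p = 0.00059) and 0.53 ± 0.10 in WT (adjusted p = 0.000598), and Pde4dip, an anchor of Pde4d, fell by 0.49 ± 0.10 in KO (adjusted p = 0.00161). Pde3b rose by 0.94 ± 0.18 in WT (adjusted p = 0.000969), and by 0.55 with normexp. The others that fell in WT were Pde1a, Pde7b and Pde4dip (named after their values were seen).

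Downstream of cAMP, 3 of 9 PKA subunits and inhibitors rose and 1 fell in KO, and 4 rose and 1 fell in WT. The regulatory subunits Prkar2a and Prkar1a, which hold the kinase inactive until cAMP binds, rose by 1.39 ± 0.27 and 0.87 ± 0.16 in KO (adjusted p = 0.00172 and 0.00113) and by 1.83 ± 0.27 and 1.15 ± 0.16 in WT (adjusted p = 0.000195 and 0.000118). Pkia, an inhibitor peptide of the catalytic subunit, rose by 1.38 ± 0.24 in KO (adjusted p = 0.000973) and 1.44 ± 0.24 in WT (adjusted p = 0.000338). Pkib fell in both genotypes and Prkar1b rose in WT (named after their values were seen).

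Of 10 A-kinase anchoring proteins tested, 2 rose and 2 fell in KO, and 1 rose and 2 fell in WT. Akap13, one of these anchors, fell by 1.10 ± 0.17 in KO (adjusted p = 0.000646) and 1.23 ± 0.17 in WT (adjusted p = 0.000133), and with its probes averaged by 0.69 and 0.75. Akap8 fell by 0.61 ± 0.13 in KO (adjusted p = 0.0025) and 0.58 ± 0.13 in WT (adjusted p = 0.00221). Akap1 rose by 0.33 ± 0.11 in WT (adjusted p = 0.0178, 0.057 without nulliparous WT replicate 3, and a difference of 0.68 with its probes averaged), and in KO by 0.27 (adjusted p = 0.049). Akap11 rose by 0.28 ± 0.10 in KO (adjusted p = 0.039), a call that ended without any one of nulliparous KO replicates 1 to 3 or lactating KO replicates 1 to 3 (adjusted p 0.0623 to 0.123) and turned to -0.10 with its probes averaged (adjusted p = 0.384).

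Among 6 other proteins that bind cAMP or act beside PKA, 3 rose and 0 fell in each genotype. Rapgef4, which encodes the exchange factor Epac2, was above background on 0 of 4 nulliparous WT arrays and was called higher in lactating WT mice (adjusted p = 0.000157), with no fold given. In KO it rose by 1.55 ± 0.34 (adjusted p = 0.0027, 2 of 4 nulliparous KO arrays above background), and normexp gave 0.31 in KO and 0.34 in WT. Popdc3 and Bves, cAMP-binding membrane proteins of muscle, rose by 0.41 ± 0.09 and 0.36 ± 0.10 in KO (adjusted p = 0.00278 and 0.0101) and by 0.73 ± 0.09 and 0.64 ± 0.10 in WT (adjusted p = 8.48e-05 and 0.000255).

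Of 10 CREB family members and coactivators, 3 rose and 3 fell in KO, and 2 rose and 4 fell in WT. Creb1 fell by 1.10 ± 0.21 in KO (adjusted p = 0.00152) and 1.08 ± 0.21 in WT (adjusted p = 0.000983), and with its probes averaged the differences were -0.66 and -0.57 (adjusted p = 0.00117 and 0.00133). Crtc2, a coactivator of CREB, fell by 0.48 ± 0.10 in KO (adjusted p = 0.00221) and 0.47 ± 0.10 in WT (adjusted p = 0.00157), although with its probes averaged the WT difference was -0.17 (adjusted p = 0.134). Crebbp, the acetyltransferase CBP, fell by 0.73 ± 0.14 in KO (adjusted p = 0.00137, -0.47 with its probes averaged), and Atf1, a close relative of Creb1, rose by 0.71 ± 0.15 in WT (adjusted p = 0.00125). The others were Creb5, which rose in both genotypes, Creb3l2, which rose in KO, and Crtc1, which fell in WT (named after their values were seen).

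Of 9 PKA substrates of the myocyte tested, 4 rose and 3 fell in KO, and 4 rose and 1 fell in WT. Pln, phospholamban, the brake on the calcium pump of the sarcoplasmic reticulum, rose by 1.17 ± 0.26 in KO (2.25-fold, adjusted p = 0.00343) and 1.45 ± 0.26 in WT (2.73-fold, adjusted p = 0.0006). Ryr2, the calcium release channel, rose by 0.80 ± 0.18 in WT (adjusted p = 0.00239), and Hspb6, a small heat shock protein, rose by 0.53 ± 0.11 in KO (adjusted p = 0.00184) and 0.60 ± 0.11 in WT (adjusted p = 0.00053). Cacna1c, the pore of the L-type calcium channel, fell by 0.29 ± 0.08 in KO (adjusted p = 0.00741), and with its probes averaged the difference was -0.40 (adjusted p = 0.0556). Cacnb2 rose in both genotypes, Tnni3 and Mybpc3 fell in KO and Rrad fell in WT (named after their values were seen).

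**Figure D4:**
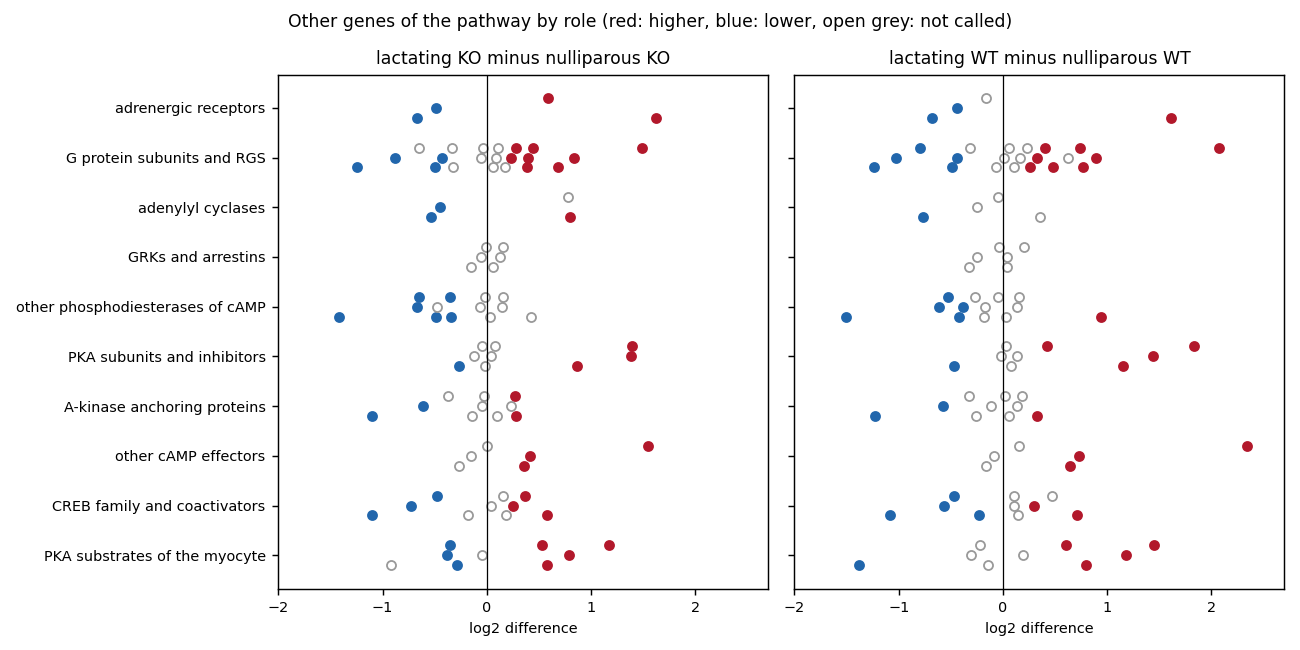
Log2 difference (x axis), lactating minus nulliparous, of the 92 other pathway genes tested, grouped by role (rows) with KO on the left and WT on the right. Red points were called higher, blue points lower and open grey points not called. No receptor kinase or arrestin is called, and Pde3a, at -1.42 in KO and -1.51 in WT, is the lowest phosphodiesterase.

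Marker sums of other cell types differed between lactating and nulliparous mice as well, and in bulk tissue fewer cells of a type and less RNA per cell cannot be told apart. Each sum runs over all markers of a list with a probe, tested or not. The summed level of the 8 cardiomyocyte markers, in units of the array's 75th percentile, was 4990 to 5750 in lactating KO, 6170 to 8670 in nulliparous KO, 5760 to 6300 in lactating WT and 6730 to 7880 in nulliparous WT arrays. Single cardiomyocyte markers went both ways, with 1 called higher and 5 lower in KO, and 2 higher and 3 lower in WT. The sum of 6 smooth muscle and pericyte markers was 46.5 to 58.2 in lactating KO, 73.1 to 110 in nulliparous KO, 56.6 to 59.7 in lactating WT and 83.5 to 104 in nulliparous WT arrays, with 4 of 6 called lower in each genotype. Macrophage markers were higher, with 6 of 6 called in KO and 5 of 6 in WT, and sums of 42.7 to 50.6 in lactating KO, 17.9 to 35.0 in nulliparous KO, 38.2 to 44.4 in lactating WT and 19.8 to 23.4 in nulliparous WT. Of 6 sympathetic neuron and Schwann cell markers 4 were tested, and in each genotype 1 was called higher and 2 lower. The sums over all 6 were 63.2 to 144 in lactating KO, 111 to 454 in nulliparous KO, 94.0 to 109 in lactating WT and 279 to 310 in nulliparous WT. The 3 atrial markers summed to 2.80 to 3.49 in lactating KO, 2.68 to 23.2 in nulliparous KO, 3.07 to 3.85 in lactating WT and 6.69 to 11.6 in nulliparous WT arrays. Of 3 mesothelial markers 2 were tested, with sums of 3.79 to 4.34 in lactating KO, 2.04 to 3.17 in nulliparous KO, 2.90 to 7.04 in lactating WT and 0.103 to 1.88 in nulliparous WT. Of 6 lymphocyte markers 3 were tested, with sums of 1.57 to 2.23 in lactating KO, 1.67 to 2.64 in nulliparous KO, 1.85 to 2.18 in lactating WT and 2.28 to 3.05 in nulliparous WT. Fibroblast and endothelial sums overlapped between lactating and nulliparous mice in both genotypes, though single markers were called. Of 6 fibroblast markers 4 were called higher and 0 lower in KO, and 3 higher and 1 lower in WT. Of 6 endothelial markers 2 were called higher in KO and 1 in WT, and 0 lower in either. Between genotypes the adipocyte markers differed, with sums of 0.324 to 0.419 in lactating KO against 3.43 to 9.09 in lactating WT, and the brown fat gene Ucp1 was above background on no array. The nulliparous sums were 0.672 to 1.59 in KO and 3.15 to 5.33 in WT. With lactation 3 of 4 tested adipocyte markers were called lower and 0 higher in KO, and 1 was called higher and 0 lower in WT. The part of these cell types in the changes of Adrb1, Adcy5, Adcy6, Grk5, Gnas, Pde4d, Pde4b and Adra1b was not tested.

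The genes most like each member over the 16 arrays were found by the root mean square difference of log2 levels centred on each gene's mean. Gnas was closest to Psma2 (0.049) and Ywhae (0.0493), beside its own SD of 0.147, and Adcy6 to Wwp2 (0.0987) and Brpf1 (0.103), beside an SD of 0.273. Adcy5 was closest to Pbrm1 (0.11) and Dedd2 (0.113), also beside an SD of 0.273. Adrb1 was closest to Slc16a13 (0.216) and Zfp46 (0.227) with an SD of 0.432, and Grk5 to Treml4 (0.24) and Med14 (0.253) with an SD of 0.542. The nearest genes were Spsb1 (0.277) and Tmem106b (0.283) for Adra1a, Tsc22d4 (0.0851) and Fam168b (0.0852) for Adra1b, Mrm1 (0.141) and Bbs10 (0.148) for Pde4d, and Zfp799 (0.207) and Pla2g4e (0.208) for Pde4b. The members themselves and placeholder symbols were left out of this search, so it does not show whether members resembled each other.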

How the data were processed

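Cy3-labelled cRNA from 200 ng of total RNA was hybridised to 16 Agilent arrays, 1 per mouse, per the labels' protocols. The deposited scanner files hold each spot's background-corrected (processed) intensity, per the file headers. The submitters' processing notes name Agilent Feature Extraction 10.7.3.1. The authors also deposited a log2 table: over 24455 probes each column equalled the log2 processed intensity minus the array's 75th percentile and minus the mean of the 4 nulliparous WT arrays, up to a constant (Pearson r of 1), with column medians from -0.382 to 0.0318. It was used as an alternative.

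Spots of a probe were averaged and control spots and outlier flags left out, leaving 55681 probes. Levels are log2 intensity minus the array's 75th percentile over probes. Through their RefSeq accessions 27793 probes were named to 21154 genes. A probe passed the filter when the scanner flagged it well above background for all 4 mice of any group, and the brightest probe stood for a gene (14074 genes). Group means of all 16 arrays were fitted with limma 3.58.1 (R 4.3.3), whose adjusted p-values (Benjamini-Hochberg over all tested genes) are those printed, with 12 residual degrees of freedom. The other probes were tested over all 18489 named probes that passed. Calls are at an adjusted p under 0.05. The code was tested on simulated data.

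The members and gene lists were chosen with earlier results of these data known. Genes named are the 9 members, Npr1, up to 3 called genes of the smallest adjusted p per list and comparison, and the 2 genes most like each member, beside markers and the genes marked in the text as named after their values were seen. The values of 1 gene of these lists are not reported here. Groups came from the labels, which state 4 independent mice per group. The number of arrays limits the precision. Alternatives were normexp (offset 50, on median signal and background, the columns at hand), quantile and median scaling, other filters, mean of probes, only the groups compared, trend and robust priors, array weights, replicate and slide blocks, each slide alone, the deposited log2 table, and the fit without each array in turn. The mean of probes took in all named probes of a gene, also those that failed the filter.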

Additional observations from a re-analysis of the deposited data

Results flagged for a closer look

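For each of the 17 tested member probes the 4 mice of each group were examined for a value far from the other 3, by Dixon's ratio of gap to range at its 95% critical value. Of 68 groups 6 held one, and chance alone flags about 1 in 20. The brightest Adrb1 probe was at 2.31 in nulliparous KO replicate 3, against 1.61 to 1.65 in the other mice of that group. The dim Adrb1 probe was at -3.30 in lactating KO replicate 1, against -2.78 to -2.74 in the others. The brightest Adra1b probe was at 2.51 in lactating WT replicate 3, against 2.14 to 2.19. Adcy6 was at 4.14 in lactating KO replicate 2, where the other 3 were at 4.06, and at 4.63 in nulliparous WT replicate 3, against 4.36 to 4.40. The dimmer Gnas probe was at -3.48 in nulliparous KO replicate 4, against -2.73 to -2.66, and this is the array that lay outside the range of its group for 12 of the 17 probes.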

How the results depend on the processing

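For lactation in KO the 2 members called became 1 without a filter, 4 with the mean of probes, 0 with only the groups compared, 5 with array weights, 0 on slide 2 on its own and 0 to 4 when single arrays were left out. The calls were 1 higher and 2 lower with normexp and with quantile scaling, and 2 higher and 0 lower with median centring. For lactation in WT the 4 called became 2 without a filter, with the replicate block and on slide 1 on its own, 0 on slide 2 on its own, and 1 to 5 when single arrays were left out. Other WT settings gave 2 higher and 3 lower with quantile scaling, 3 higher and 0 lower with median centring, and 1 higher and 4 lower with the mean of probes. There were 1 higher and 2 lower with only the groups compared, 1 higher and 3 lower with array weights, and 3 higher and 3 lower with the slide block. The 4 other probes called lower in each genotype became 0 on slide 2 on its own. In the genotype comparisons and the interaction 0 members were called under every alternative run. On slide 2 alone 0 of all genes were called in KO and 86 in WT, against 6178 and 5563 on slide 1. The causes were not tested.

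Replicate numbers did not pair the mice: same-numbered mice correlated at -0.136 to 0.179 in their deviations from the group means (median 0.0295 over 24 pairs). With the replicate block WT kept 2 members called (Adcy6 and Grk5), and the block changed no other count of members. Its count over all genes was 7075 in WT, against 7074 without it.

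Signs turned for differences near 0 and for some larger ones. In the main fit Pde4b was 0.41 in KO and 0.53 in WT, and Gnas 0.20 and 0.22. The dim Adrb1 probe was 0.26 in KO and 0.40 in WT, and the interaction of Adra1a was -0.36. In KO, Adra1b was 0.10 with median centring and Pde4d -0.06 to 0.18 with arrays left out. In WT, Adra1a was 0.13 with quantile scaling, 0.16 with median centring, 0.07 with array weights, 0.55 on slide 1 and -0.28 to 0.16 with single arrays left out. Adra1b was -0.02 with quantile scaling and -0.01 to 0.17 with arrays left out, and Pde4d 0.14 with median centring, 0.04 on slide 2 and -0.15 to 0.10 with arrays left out. With the mean of probes KO values were Gnas -0.32, Pde4d -0.80, Pde4b -0.25 and Akap11 -0.10, and WT values Adra1b -0.43, Gnas -0.40 and Pde4b -0.40. The dim Adrb1 probe was -0.23 in KO and -0.14 in WT with normexp. The further Adcy5 probes A_55_P2106645 and A_66_P120414 were 0.11 and 0.14 in KO and 0.08 and 0.00 in WT with median centring, 0.32 and 0.24 in KO on slide 2, and -0.20 to 0.06 and -0.15 to 0.06 in KO with arrays left out, and A_66_P120414 was 0.02 in KO with normexp. Pde4b between nulliparous KO and WT mice was -0.09 on slide 1, and the interaction of Adra1a was 0.31 on slide 2. Adra1a, the other probes of Adrb1 and Gnas, the dimmest Pde4b probe, Adra1d, Gna12 and Rapgef4 were read by dim probes. Their values moved with background correction, and the cause was not tested. The dimmest Pde4b probe went from -0.93 to -0.68 in KO and from -1.38 to -0.82 in WT with normexp.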
